A study of Homo sapiens with 6 samples.

Results

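The 10 genes described here encode RNA-binding proteins that set splicing and mRNA stability in neurons, or the general counterparts of such proteins: ELAVL1, ELAVL2, ELAVL3, ELAVL4, NOVA1, NOVA2, RBFOX2, CELF4, PTBP1 and PTBP2. They were taken by symbol from a count table of 50883 genes, where all 10 were found. RNA came from D283, an established human medulloblastoma cell line, in 2 groups of 3 libraries each. The OTX2 knockout cultures received a GFP-expressing lentivirus with a guide RNA against OTX2, which encodes a homeodomain protein active in embryonic brain and eye. The control cultures received the same kind of virus with a non-targeting guide, and all cultures were collected after 7 days. The number of guides, the nuclease and the share of edited cells were not stated in the labels. As all libraries come from 1 line, a p-value here reflects variation among libraries of that line, which need not be separate infections.

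The ELAVL proteins, also called Hu proteins, bind U-rich and AU-rich elements and stabilise mRNAs. ELAVL1 (HuR) is made in nearly all cells, whereas ELAVL3 (HuC) and ELAVL4 (HuD) are made in neurons, and ELAVL2 (HuB) in neurons and gonads. PTBP1 represses neuronal exons in non-neuronal cells and progenitors, its neural paralogue PTBP2 takes over as neurons form, and NOVA, RBFOX and CELF proteins then direct the exon choices of mature neurons. The counts are per gene, so exon use and protein were not measured.

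Libraries held between 54540645 and 62166870 counts. Levels are in CPM, counts divided by library size, with sizes scaled with TMM (trimmed mean of M values), and 3 counts corresponded to between 0.0471 and 0.0563 CPM. OTX2 itself had 765, 824 and 887 CPM in the knockout libraries, against 1002, 979 and 909 CPM in the control libraries. The groups did not overlap, and the log2 fold change was -0.22 (SE 0.06, edgeR adjusted p = 0.00646). Since edited transcripts may persist, RNA abundance tests the labels only weakly. All 5 fixed markers of the line (OTX2, MYC, CRX, NRL and IMPG2) were detected and fell, where 18.5% of all tested genes fell. NRL exons overlap DCAF11, so its count is uncertain. The summed level of the 5 markers was 2478 to 2976 CPM in knockout and 3491 to 3811 CPM in control libraries. Control replicate 1 had 0.764% mitochondrial counts, against 0.531% to 0.601% in knockout libraries and 0.440% and 0.449% in the other controls.

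The 10 genes fell into an abundant set and a scarce set. PTBP1, ELAVL2, RBFOX2, ELAVL1 and PTBP2 stood above 10 CPM in each of the 6 libraries, and NOVA1, ELAVL3, ELAVL4, CELF4 and NOVA2 below. Of the 10 genes, 5 rose in knockout cells (ELAVL2, ELAVL3, ELAVL4, NOVA2 and CELF4), 2 fell (NOVA1 and PTBP1) and 3 did not pass (ELAVL1, RBFOX2 and PTBP2). A gene was called at a Benjamini-Hochberg adjusted p under 0.05 in the quasi-likelihood test of edgeR over 18420 genes, of which 39.7% were called, 21.2% as higher (3908 genes) and 18.5% as lower (3404 genes). With library totals alone as the scaling, 5210 genes were higher and 2034 lower. Rises of more than 2-fold comprised 4 of the 10 genes, against 6.04% of tested genes. These 4 are all scarce genes, and ELAVL4 and NOVA2 passed the filter on low counts only through the knockout libraries. The 10 genes were also chosen with earlier results of these data known, so nothing is read from the share. The median log2 fold change was 0.14 over the 10 genes and 0.01 over all tested genes. In bulk RNA, fewer cells that express a gene and less RNA per cell cannot be told apart.

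**Figure D1:**
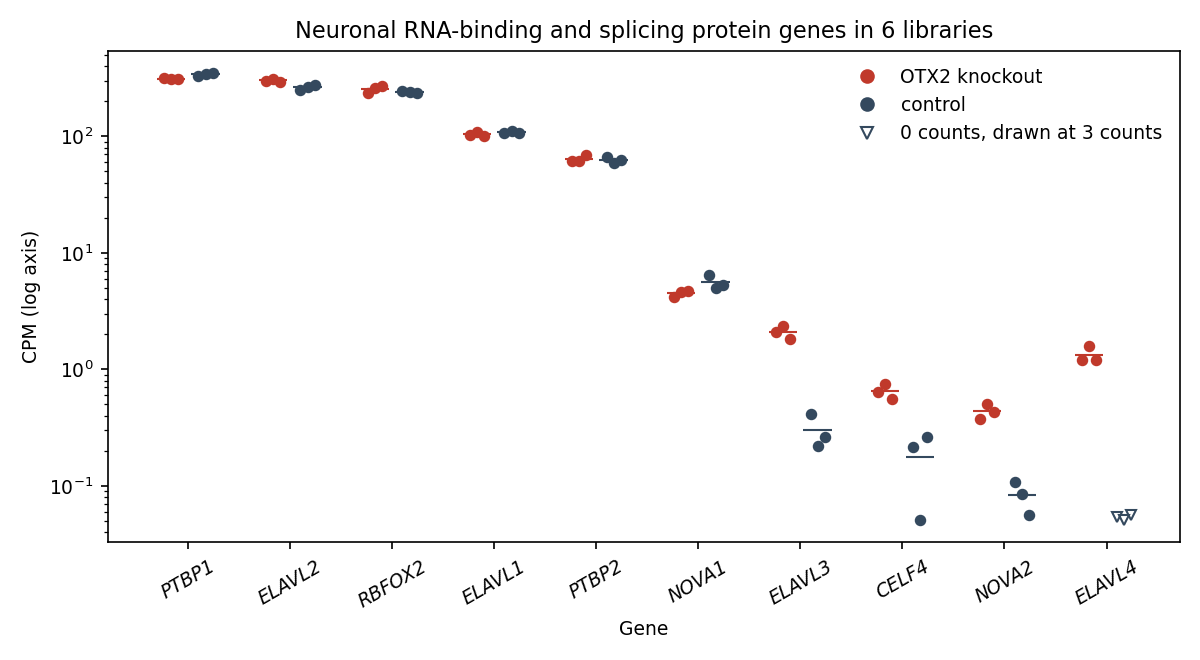
CPM of the 10 genes (log axis) in each library, with OTX2 knockout in red left of control in blue and short lines at group means. Open triangles stand for 0 counts and are drawn at the level of 3 counts. ELAVL4, ELAVL3, NOVA2 and CELF4 separate widely between the groups, and the abundant genes lie close together.

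Of the 10 genes, ELAVL4 and ELAVL3 had the largest changes. ELAVL4 had 76, 99 and 76 counts in the knockout libraries and 0 counts in each control library. These counts gave 1.19, 1.60 and 1.20 CPM in knockout, a mean at least 74.4-fold higher than the 0.0179 CPM that 3 counts over the whole control group would give. ELAVL4 thus appeared in all knockout cultures at a low level, and its edgeR adjusted p was 6.08e-08.

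ELAVL3 had 2.10, 2.34 and 1.83 CPM in the knockout libraries, against 0.415, 0.220 and 0.263 CPM in the control libraries. Each knockout value lay above each control value, with means of 2.09 ± 0.256 CPM in knockout and 0.299 ± 0.103 CPM in control (SD, n = 3 each). This was a 6.99-fold rise and a log2 fold change of 2.80 (SE 0.22, edgeR adjusted p = 9.0e-08).

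ELAVL2 was already among the abundant genes in control cells and changed little. Its levels were 300.5, 312 and 291 CPM in knockout libraries, against 249, 264 and 275 CPM in control libraries. The groups did not overlap, and the log2 fold change was 0.20 (SE 0.05, edgeR adjusted p = 0.00566), a 1.15-fold rise. The call was lost without knockout replicate 2 (edgeR adjusted p = 0.0564).

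ELAVL1, the ubiquitous paralogue, had 102, 109 and 101 CPM in knockout libraries, against 107, 110.1 and 106 CPM in control libraries. The groups overlapped, with a log2 fold change of -0.05 (95% interval -0.15 to 0.05, edgeR adjusted p = 0.444). Its sign turned when libraries were scaled by totals alone (0.03).

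Within the family, ELAVL2 carried most of the transcripts in both groups. Per kilobase of exon, ELAVL2 made up 79.0% ± 0.257 of ELAVL counts in knockout and 76.7% ± 1.07 in control libraries (SD, n = 3 each). On the same scale ELAVL3 made up 0.592% ± 0.0511 in knockout and 0.0951% ± 0.0361 in control, and ELAVL4 0.257% ± 0.0359 in knockout and 0% in control. The summed share of ELAVL2, ELAVL3 and ELAVL4 was 80.0%, 79.6% and 79.8% in knockout libraries, against 75.9%, 76.4% and 77.9% in control libraries. The difference was 3.06 percentage points, with groups that did not overlap. The exact two-sided permutation test gave p = 0.1, the smallest that 3 against 3 libraries allow, and 0.15 after Benjamini-Hochberg adjustment over 3 such tests.

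NOVA1 and NOVA2, KH-domain proteins that bind YCAY elements, differed in direction. NOVA2, the paralogue of cortical and other forebrain neurons, had 24, 31 and 27 counts in knockout libraries, against 6, 5 and 3 counts in control libraries. Its means were 0.435 ± 0.0626 CPM in knockout and 0.0831 ± 0.0261 CPM in control (SD, n = 3 each), with no overlap. The log2 fold change was 2.35 (SE 0.35, edgeR adjusted p = 8.27e-05), a 5.23-fold rise at a level that remained under 1 CPM in each library.

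NOVA1, the paralogue of hindbrain and spinal cord neurons, had 4.21, 4.62 and 4.71 CPM in knockout libraries, against 6.50, 4.95 and 5.25 CPM in control libraries. The groups did not overlap, though the control values reached down close to the knockout ones. The log2 fold change was -0.30 (SE 0.11, edgeR adjusted p = 0.037). Leaving out control replicate 1, which had the highest mitochondrial share, gave -0.18 (edgeR adjusted p = 0.176), and the call was also lost without knockout replicate 1 (0.137) or 2 (0.0658), with DESeq2 (0.0503), with a filter of 1 CPM in 3 libraries (0.0532), with upper-quartile factors (0.0563) and with library totals alone (0.135). Per 100 counts of NOVA1 there were 8.96, 10.8 and 9.06 counts of NOVA2 in knockout libraries, against 1.67, 1.71 and 1.07 in control libraries. The log2 ratio of NOVA2 to NOVA1 differed by 2.72, without overlap (exact permutation p = 0.1, the smallest possible, and 0.15 adjusted over 3 tests).

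CELF4, a neuronal member of the CUGBP and ETR-3-like family, had 41, 46 and 35 counts in knockout libraries, against 12, 3 and 14 counts in control libraries. Its means were 0.647 ± 0.0956 CPM in knockout and 0.177 ± 0.111 CPM in control (SD, n = 3 each). The log2 fold change was 1.89 (SE 0.36, edgeR adjusted p = 0.000661), and control replicate 2 stood lowest. ELAVL4 and NOVA2 passed the filter on low counts only through the knockout libraries, and 2 of the 3 control libraries passed for CELF4, so such scarce genes could enter the test mainly by being higher in knockout. With no filter, 5 of the 10 genes were again called higher.

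RBFOX2, which binds UGCAUG and is made in neurons, muscle and many other cells, had 236, 259 and 268 CPM in knockout libraries, against 245, 241 and 234 CPM in control libraries. The groups overlapped, and the log2 fold change was 0.08 (95% interval -0.03 to 0.19, edgeR adjusted p = 0.238). With library totals alone it was 0.16 and passed (edgeR adjusted p = 0.0157).

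The PTBP pair changed little: PTBP1 fell slightly, PTBP2 did not pass the test, and their ratio overlapped between the groups. PTBP1 had 314, 309 and 309 CPM in knockout libraries, against 326, 342 and 348 CPM in control libraries. The groups did not overlap, and the log2 fold change was -0.12 (SE 0.05, edgeR adjusted p = 0.0388), a level 1.09-fold lower in knockout. This small fall did not pass under scaling by library totals (-0.05, adjusted p = 0.405), with no filter (0.0762), with upper-quartile factors (0.057), and on leaving out control replicate 2 (0.115) or 3 (0.140), or any knockout replicate (0.0672 without 1, 0.129 without 2 and 0.0596 without 3), all by edgeR.

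PTBP2 had 61.5, 61.7 and 68.7 CPM in knockout libraries, against 67.0, 58.5 and 62.8 CPM in control libraries. These values overlapped, with a log2 fold change of 0.03 (95% interval -0.10 to 0.15, edgeR adjusted p = 0.751). For each 100 counts of PTBP1 there were 19.6, 19.9 and 22.3 counts of PTBP2 in knockout libraries, against 20.6, 17.1 and 18.1 in control libraries. The log2 ratio differed by 0.15, the groups overlapped, and the exact permutation test gave p = 0.3 (0.3 after adjustment over 3 tests).

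**Figure D2:**
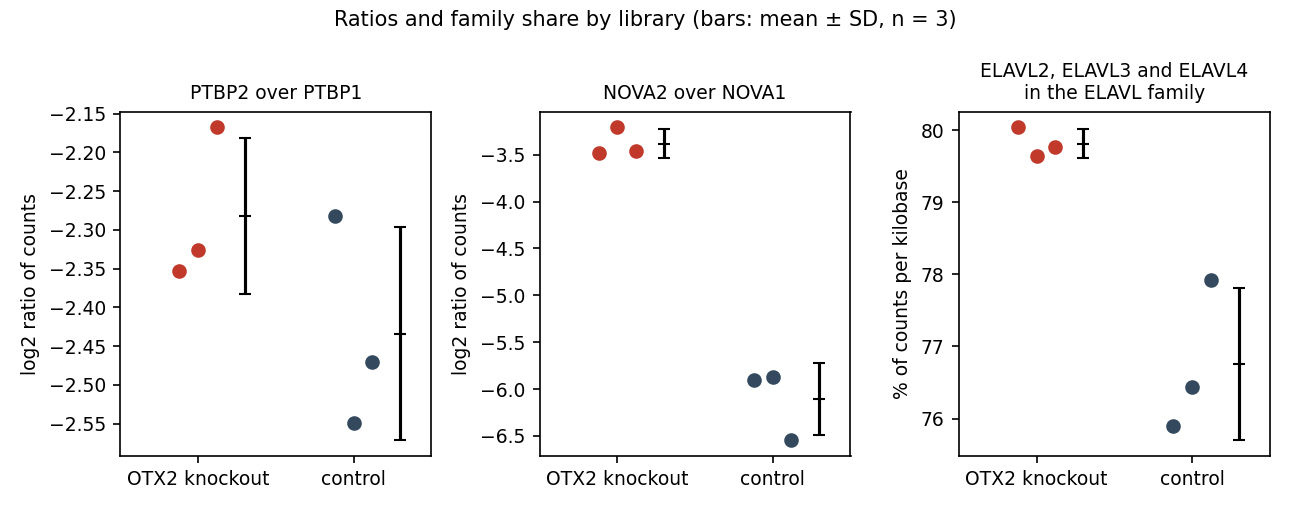
Log2 ratio of PTBP2 to PTBP1 counts, log2 ratio of NOVA2 to NOVA1 counts, and the percent of ELAVL counts per kilobase from ELAVL2, ELAVL3 and ELAVL4, in each library, with OTX2 knockout left of control. Bars give mean and SD (n = 3); the vertical axes do not start at 0. PTBP ratios overlap between the groups, and the other measures do not.

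**Figure D3:**
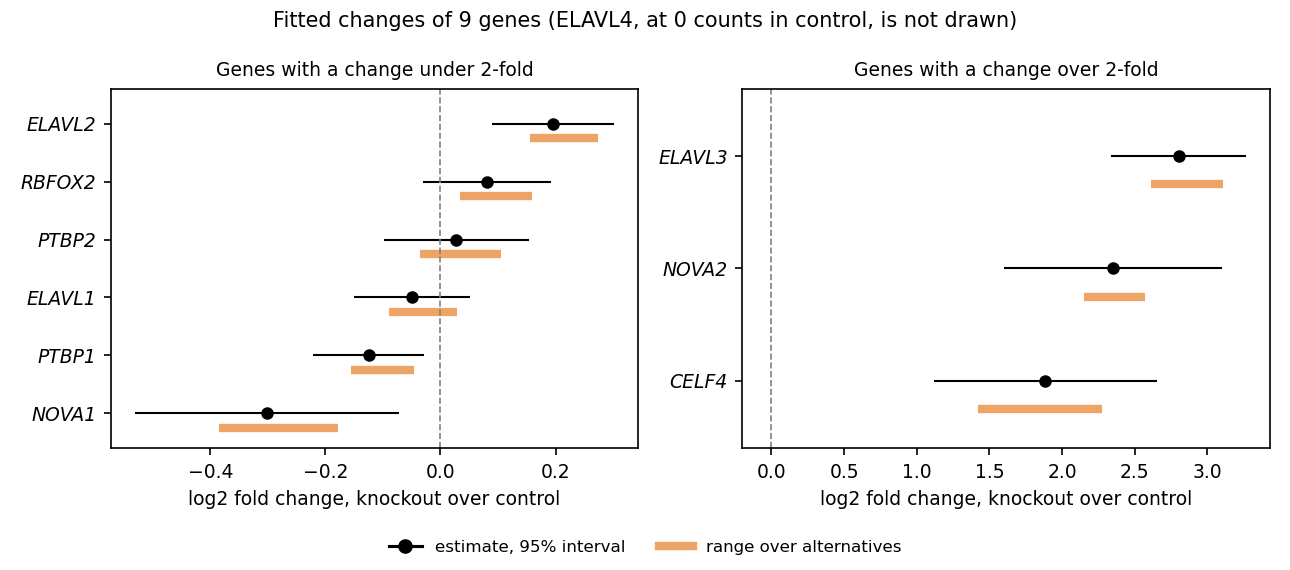
Log2 fold change, knockout over control, of 9 genes with its 95% interval (black), and the range of the estimate over the alternative analyses (orange). ELAVL4 is not drawn because its control counts are 0. The intervals of ELAVL3, NOVA2 and CELF4 lie above 1, and those of ELAVL1, RBFOX2 and PTBP2 include 0.

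Groups did not overlap in CPM for 7 of the 10 genes, 5 higher and 2 lower in knockout, against 49.2% of all tested genes (26.2% higher and 23% lower). The order of levels per kilobase of exon was led by ELAVL2 at 58.6 ± 2.06 and PTBP1 at 45.1 ± 0.445 CPM per kilobase in knockout libraries. In control libraries ELAVL2 stood at 51.1 ± 2.54 and PTBP1 at 49.2 ± 1.69 CPM per kilobase, within their spread (SD, n = 3 each). Divided by the longest transcript instead, control PTBP1 (72.7) stood above control ELAVL2 (69.1). RBFOX2, ELAVL1 and PTBP2 followed in both groups, with 25.4 ± 1.67, 15.0 ± 0.640 and 4.94 ± 0.319 CPM per kilobase in knockout and 24.0 ± 0.522, 15.5 ± 0.325 and 4.85 ± 0.328 in control.

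Among the scarce genes the order of levels differed between the groups. In knockout libraries NOVA1 (0.449 ± 0.0266 CPM per kilobase) and ELAVL3 (0.440 ± 0.0539) lay within their spread, above ELAVL4 (0.191 ± 0.0335), CELF4 (0.0990 ± 0.0146) and NOVA2 (0.0501 ± 0.00721). In control libraries NOVA1 stood alone at 0.554 ± 0.0819, followed by ELAVL3 at 0.0629 ± 0.0215, CELF4 at 0.0271 ± 0.0171, NOVA2 at 0.00957 ± 0.00300 and ELAVL4 at 0. All 10 genes are annotated as protein-coding in GENCODE release 29 on GRCh38, and exons of none of them overlapped another gene of the table. ELAVL1, ELAVL3, NOVA2 and PTBP1 lie on chromosome 19, ELAVL4 and PTBP2 on chromosome 1, ELAVL2 on 9, NOVA1 on 14, CELF4 on 18 and RBFOX2 on 22.

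Sequences around start sites are shown for ELAVL4, NOVA2 and CELF4, 3 of the 4 genes that rose by more than 2-fold, and for NOVA1, which moved the other way beside its paralogue. The fourth, ELAVL3, was not matched to a window. RefSeq (GRCh38.p14) gave 21 windows of 250 bases before to 50 bases after a start for 7 of the 10 genes, with 7 windows for ELAVL4, 3 for NOVA1 and 1 each for NOVA2 and CELF4. Capitals mark exact matches, on either strand, to TAATCC (the core bound by OTX and CRX homeodomains), CAGATG and CAGCTG (E-boxes of basic helix-loop-helix proteins), and the left part (TTCAGCACC) and the right part of the REST site. Each is written 5′ to 3′ on the strand of the gene, and the ELAVL4 and NOVA1 windows were picked because they hold TAATCC. Which start the cells use cannot be read from counts per gene.
ELAVL4, chr1:50103659-50103958, plus strand: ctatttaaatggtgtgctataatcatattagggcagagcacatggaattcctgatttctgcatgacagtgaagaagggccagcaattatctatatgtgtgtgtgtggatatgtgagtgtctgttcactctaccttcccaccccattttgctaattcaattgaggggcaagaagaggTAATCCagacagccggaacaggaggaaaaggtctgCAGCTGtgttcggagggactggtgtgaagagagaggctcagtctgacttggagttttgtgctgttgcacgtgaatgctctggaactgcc
NOVA2, chr19:45973816-45974115, minus strand: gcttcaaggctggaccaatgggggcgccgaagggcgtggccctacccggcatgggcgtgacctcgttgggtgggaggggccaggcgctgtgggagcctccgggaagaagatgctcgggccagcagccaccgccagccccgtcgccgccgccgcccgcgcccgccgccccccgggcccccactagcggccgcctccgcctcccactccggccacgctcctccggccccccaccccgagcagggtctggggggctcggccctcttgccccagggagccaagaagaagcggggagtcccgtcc
CELF4, chr18:37485743-37486042, minus strand: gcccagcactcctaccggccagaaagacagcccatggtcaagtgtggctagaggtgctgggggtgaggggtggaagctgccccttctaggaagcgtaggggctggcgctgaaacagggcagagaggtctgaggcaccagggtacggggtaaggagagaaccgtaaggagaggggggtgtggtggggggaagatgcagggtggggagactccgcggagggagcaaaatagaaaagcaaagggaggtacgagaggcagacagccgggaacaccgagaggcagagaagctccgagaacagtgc
NOVA1, chr14:26596048-26596347, minus strand: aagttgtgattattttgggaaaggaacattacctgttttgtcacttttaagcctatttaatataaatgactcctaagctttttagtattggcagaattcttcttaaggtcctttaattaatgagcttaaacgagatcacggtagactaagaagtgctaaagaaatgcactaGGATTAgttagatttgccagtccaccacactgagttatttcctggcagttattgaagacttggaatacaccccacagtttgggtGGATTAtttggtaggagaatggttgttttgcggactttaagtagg

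The ELAVL4 window holds TAATCC 74 bases before the start and CAGCTG 39 bases before it. The NOVA1 window holds TAATCC in reverse complement (GGATTA) in 2 places, and the NOVA2 and CELF4 windows hold none of the 5 motifs. TAATCC occurs in 6.36% of 35116 such windows of all genes, CAGATG in 14.7%, CAGCTG in 17.9%, TTCAGCACC in 0.376% and the right part of the REST site in 0.259%. Over the windows of the 10 genes TAATCC was in 2 of 21, in 1 of 7 windows of ELAVL4 and 1 of 3 of NOVA1, and since the windows shown were picked for it, nothing is read from their matches. Of the other ELAVL4 windows, 2 hold CAGATG and 1 holds CAGCTG. A match is a string of letters, not a site shown to be bound, and no motif overlapped another in the windows shown.

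The genes closest in profile to the 4 large risers were sought among 12944 tested genes with a mean count of at least 100, by the root mean square difference of log2 CPM relative to the control mean over the 6 libraries. Among the 3 genes closest to ELAVL3 were the GDNF co-receptor GFRA1 (difference 0.19) and the calcium sensor NCALD (0.22). NOVA2 was closest to the microtubule protein DCX of migrating neurons (0.12), to SEZ6 (0.17) and to HIVEP2 (0.17). For ELAVL4 the nearest were EPHB2 (0.17), CACNA2D2 (0.23) and CABP7 (0.27), where the value depends on the prior count of 2 given to empty libraries, and exons of CACNA2D2 and CABP7 overlap those of CYB561D2 and ZMAT5, so their counts are uncertain. CELF4 had no neighbour as close, with PLEKHA6 at 0.47, CHST2 at 0.48 and FMNL1 at 0.50. The prior count is added in every library, so the differences of NOVA2 and CELF4 depend on it too. In control libraries NOVA2 had 6, 5 and 3 counts and CELF4 12, 3 and 14. The fitted log2 fold change was 2.35 for NOVA2 and 1.92 for DCX, further apart than their profile difference.

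A list of further neuron-enriched RNA-binding proteins was chosen with earlier results of these data known. Most of its tested genes moved in the same direction as the 4 large risers. Of 10 listed genes, 7 were tested, 6 rose and 0 fell, where 21.2% of all tested genes were up and 18.5% down. The 7 tested genes had a median log2 fold change of 0.60, against 0.01 over all tested genes. The number that rose was 6 under each alternative except glmTreat against a 1.5-fold change, which called 1. RBFOX3, the neuronal nuclear antigen NeuN, averaged 1.34 ± 0.141 CPM in knockout and 0.0658 ± 0.0214 CPM in control (SD, n = 3 each), a log2 fold change of 4.30 (SE 0.29). All 3 control libraries of RBFOX3 lay below the filter on low counts, so it entered the test only through the knockout libraries. The microexon regulator SRRM4 averaged 24.2 ± 0.451 CPM in knockout and 15.9 ± 1.05 CPM in control, a log2 fold change of 0.60 (SE 0.06). CELF3 rose by 0.69 (SE 0.08) and KHDRBS3 by 0.51 (SE 0.07) on the log2 scale. SRRM3 (0.80) and CELF2 (0.36) also rose, and KHDRBS2 had -0.02 (edgeR adjusted p = 0.914), these 3 genes being chosen after their values were seen. RBFOX1, CELF5 and CELF6 did not reach the test. RBFOX1 averaged 0.0421 ± 0.0325 CPM in knockout and 0.127 ± 0.0664 CPM in control (SD, n = 3 each), with overlapping groups and 29 counts in all. CELF6 had 0 counts in all libraries, which does not show that it was not expressed, since the counter and annotation were not stated.

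The lists of general splicing factors are described by their counts, beside the 39.7% of all tested genes that were called. Of 13 tested SR proteins, 1 rose and 0 fell (median 0.01). The riser was SRSF6 at 202 ± 3.30 CPM in knockout and 184 ± 5.42 CPM in control (SD, n = 3 each). The number of SR genes up was 0 to 2 on leaving out a library, and 0 with RLE size factors, no filter or DESeq2. It was 3 with library totals alone, with upper-quartile factors and with a filter of 1 CPM in 3 libraries. Of 20 tested hnRNP proteins, 1 rose and 5 fell (median -0.08), among them HNRNPD (-0.30), HNRNPL (-0.18), HNRNPC (-0.17) and HNRNPA1 (-0.16), whose counts can share reads with pseudogenes. With library totals alone 3 hnRNP genes rose and 1 fell. Of 9 broadly expressed splicing regulators, 1 rose and 3 fell (median -0.11). Muscleblind-like MBNL2 rose by 0.71 (SE 0.05), while the progenitor protein MSI1 fell by 0.32 (SE 0.05), the third PTB paralogue PTBP3 fell by 0.24 (SE 0.05), and MBNL3 fell by 0.31 (SE 0.07) on the log2 scale.

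RNA-binding proteins of mRNA transport and translation had 2 of 15 genes up and 3 down (median -0.07), where 21.2% of all tested genes were up and 18.5% down. FMR1, the protein lost in fragile X syndrome, averaged 227 ± 3.82 CPM in knockout and 186 ± 1.61 CPM in control (SD, n = 3 each), and CPEB4 rose by 0.40 (SE 0.06) on the log2 scale. CPEB2 fell by 0.66 (SE 0.09) and CPEB1 by 0.25 (SE 0.06).

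**Figure D4:**
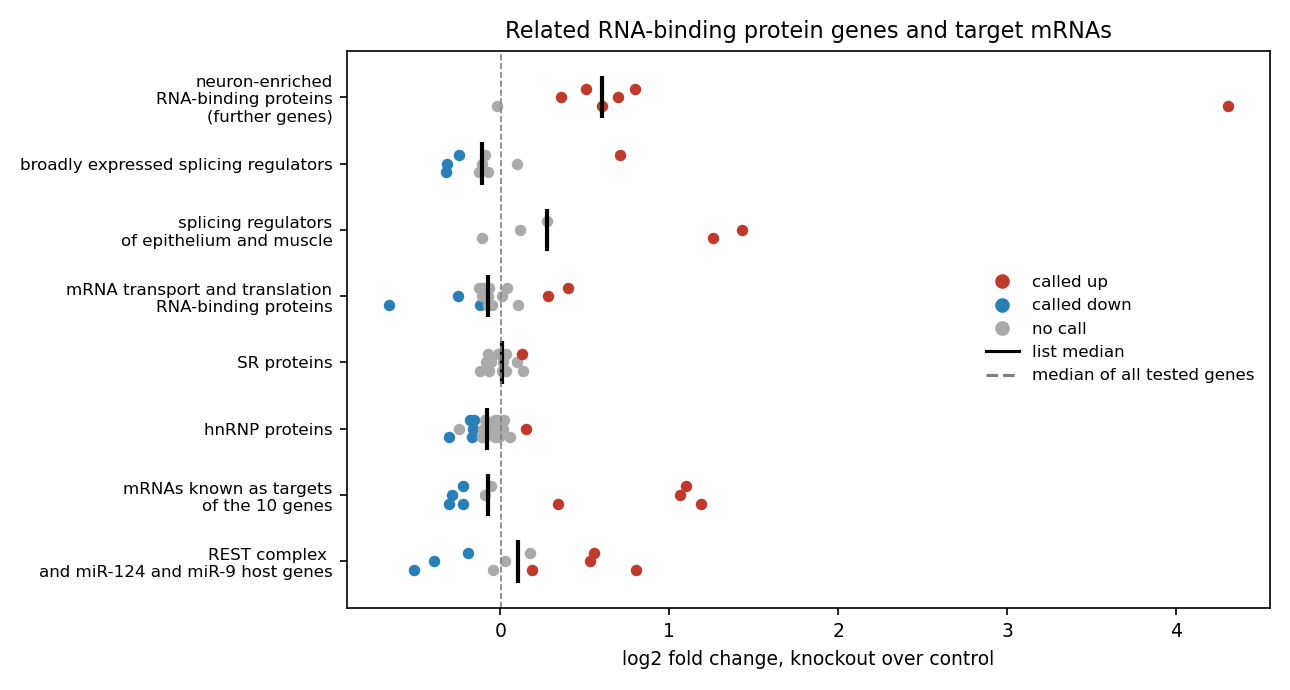
Log2 fold change, knockout over control, of tested genes in 8 lists of related genes, coloured by call, with list medians (black) and the median of all tested genes (dashed). The neuron-enriched list has its median at 0.60, and the SR and hnRNP lists lie near 0.

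mRNAs known as targets of these proteins did not move in 1 direction, as gene totals. Of 16 listed, 10 were tested, 4 rose and 4 fell (median -0.07), where 21.2% of all tested genes were up and 18.5% down. CDKN1A, a cell cycle inhibitor whose mRNA ELAVL proteins bind, averaged 388 ± 31.6 CPM in knockout and 170.3 ± 17.4 CPM in control (SD, n = 3 each), a log2 fold change of 1.19 (SE 0.07). AGRN, a NOVA splicing target, rose by 1.10 (SE 0.13), MAPT, which encodes tau, by 1.07 (SE 0.14), and SRC, whose neuronal exon PTBP1 represses, by 0.34 (SE 0.05) on the log2 scale. The 4 that fell, chosen after their values were seen, were PKM (-0.28), ENAH (-0.22), GPHN (-0.22) and DAB1 (-0.30), the last with exons that overlap OMA1, so that its count is uncertain. GAP43, the growth cone mRNA stabilised by ELAVL4 and named after its values were seen, did not reach the test. It averaged 0.0585 ± 0.0251 CPM in knockout and 0.0179 ± 0.000919 CPM in control, with 14 counts in all, too few for the SD to measure its spread. The number that fell was 2 under scaling by library totals or on leaving out knockout replicate 1.

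REST, the repressor of neuronal genes outside neurons, and the host genes of miR-124 and miR-9, microRNAs of neurons and neural progenitors, were measured as well. REST, chosen after its values were seen, averaged 89.7 ± 3.81 CPM in knockout and 92.6 ± 6.29 CPM in control (SD, n = 3 each; edgeR adjusted p = 0.552), and its exons overlap NOA1, so its count is uncertain. Of the 10 genes of this list, 4 rose and 3 fell (median 0.10), where 21.2% of all tested genes were up and 18.5% down. MIR9-1HG, listed in the table as C1orf61, averaged 133 ± 6.23 CPM in knockout and 76.3 ± 2.71 CPM in control, and MIR9-3HG rose by 0.53 (SE 0.12) on the log2 scale. MIR124-2HG averaged 5.07 ± 0.180 CPM in knockout and 7.24 ± 0.629 CPM in control, a log2 fold change of -0.51 (SE 0.09). CTDSPL, a phosphatase that acts with REST, rose by 0.55 (SE 0.07). Mature microRNAs were not measured here.

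Markers of neurons and of other cell types moved beside these genes. Their counts stand beside the 21.2% of all tested genes that were up and the 18.5% that were down. Of 6 neuronal markers, 5 were tested, 4 rose (MAP2, DCX, SNAP25 and STMN2) and SYT1 fell. TUBB3 had 0 counts in all libraries, which does not show that it was not expressed, since the counter and annotation were not stated. The summed level of the neuronal markers was 199 to 222 CPM in knockout and 175 to 200.0 CPM in control libraries. Of 5 fibroblast markers, 4 were tested and 3 rose, with sums of 18.7 to 19.8 CPM in knockout and 8.79 to 9.51 CPM in control, and of 5 endothelial markers, 3 were tested and 2 rose, with sums of 5.50 to 6.56 CPM in knockout and 2.53 to 4.00 CPM in control. Of 5 progenitor markers, 4 were tested, 2 rose and 1 fell, with sums of 816 to 837 CPM in knockout and 824 to 902 CPM in control. Of 5 astroglial markers, 2 were tested and 1 fell, with sums of 48.7 to 52.4 CPM in knockout and 78.3 to 90.3 CPM in control. Of 5 oligodendrocyte markers, 2 were tested, 1 rose and 1 fell, with sums of 1026 to 1055 CPM in knockout and 1498 to 1532 CPM in control. Of 5 immune markers, 2 were tested and 1 rose, with sums of 0.284 to 0.487 CPM in knockout and 0.271 to 0.450 CPM in control. Among the markers that rose were PECAM1, CD14, DCN and PAX6 (exons overlap ELP4, so its count is uncertain), named after their values were seen. All control libraries of these genes lay below the filter on low counts, so they could enter the test only by being higher in knockout. CD3E had 0 counts in all libraries, and SOX2, MOG and MBP each had 1 count in all. The part of these markers in the changes above was not tested.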

How the data were processed

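RNA from 6 D283 cultures was sequenced, 3 per group. Values deposited by the authors are raw counts for each gene symbol in each library, and columns were matched to samples by title. Alignment with STAR to hg38 is listed per the submitters' processing notes; the counter, annotation, strand setting and filters were not stated, so reads of overlapping or antisense genes could not be told apart. The floor of 3 counts covers counting error only, whereas the 95% intervals come from the edgeR fit and include variation among libraries.

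The analysis used edgeR 4.0.16 (R 4.3.3): filterByExpr with a minimum count of 10, TMM scaling, and the quasi-likelihood F test, with Benjamini-Hochberg adjustment over 18420 genes and a threshold of 0.05. Log2 fold changes and SE come from the fit, and folds are ratios of mean CPM. Exon lengths and overlaps came from GENCODE release 29, and an overlap is named where the other gene holds over 10% of the count. Ratios of genes were compared by exact permutation over libraries. Alternatives were other scalings, other filters, DESeq2 1.42.0, limma-voom (limma 3.58.1), glmTreat against a 1.5-fold change, a threshold of 0.01 and leaving out each library; the longest transcript as length was chosen after seeing the data. Replicates of a group differed by more than sampling noise (chi-square per gene of 4.36 to 21.0).

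The 10 genes, the 8 lists (99 of 100 entries matched, SRSF8 not analysed here) and the marker lists were chosen with earlier results of these data known, and target and marker lists come from textbook knowledge. Named genes are OTX2, the 10 genes, up to 4 tested genes of each list with the smallest adjusted p, and the 3 nearest profiles of genes called with a fold over 2; not all that the rule takes are printed, 1 nearest profile is not reported here, and others are said to be chosen after their values were seen.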

Additional observations from a re-analysis of the deposited data

How the results depend on the processing

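ELAVL3 and ELAVL4 were called higher under all 15 alternatives, and NOVA2 and CELF4 under the 14 in which they were tested. The log2 fold changes were 2.61 to 3.11 (ELAVL3), 2.15 to 2.57 (NOVA2) and 1.42 to 2.28 (CELF4). All alternatives reuse the same libraries. ELAVL4 and NOVA2 passed the default filter only through the knockout libraries, so such scarce genes could enter most of these tests mainly by being higher in knockout. Of 148 values of the 10 genes, 123 kept their direction and side of the threshold, 21 were no longer past it, 1 newly passed it and 3 turned sign: ELAVL1 with library totals alone (0.029), and PTBP2 without control replicate 2 (-0.024) or without knockout replicate 3 (-0.035), with PTBP2 between -0.035 and 0.073 over all leave-outs. The stricter filter (1 CPM or more in 3 libraries), which removes NOVA2 and CELF4, left 4 genes called, 3 higher and 1 lower, and glmTreat called 4, 0 of them lower. The number of lower genes, 2 in the report, was 0 with upper-quartile factors, with library totals alone and at a threshold of 0.01, and 1 with no filter and with DESeq2. Leaving out a library gave 4 to 6 genes called, 4 to 5 higher and 0 to 1 lower, with 4 called without knockout replicate 2; the cause was not tested. The lists together had 39 calls, 21 higher and 18 lower; glmTreat gave 7, 7 and 0, library totals alone gave 10 lower, and leaving out a library gave 32 to 41 calls, 19 to 23 higher and 13 to 21 lower. Rises made up 71.9% of all calls with library totals alone, which moved the median of all genes to 0.08. The differences of ratios and share ranged from 0.09 to 0.23 (PTBP), 2.50 to 2.84 (NOVA) and 2.63 to 3.65 percentage points (ELAVL) on leaving out a library, and the ELAVL difference was 3.59 points from counts alone and 2.79 with the longest transcript. No paired analysis was possible because the labels give no replicate number shared between the groups. Depth limits CELF4, NOVA2, ELAVL3 and ELAVL4, which rest on 29, 14, 50 and 0 counts over the control libraries.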

Other observations

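NOVA1-AS1, now named NOVA1-DT, a divergent noncoding gene beside NOVA1, was chosen after its values were seen and had 473, 424 and 440 counts in knockout libraries, against 626, 563 and 608 counts in control libraries. The groups did not overlap, with a log2 fold change of -0.60 (SE 0.08, edgeR adjusted p = 3.73e-05).

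Splicing regulators known from epithelium and muscle were measured in the same cells. Of 6 listed, 5 were tested, 2 rose and 0 fell, where 21.2% of all tested genes were up and 18.5% down. The median of the 5 was 0.28 on the log2 scale. RBM24, a regulator of muscle exons, averaged 12.4 ± 0.380 CPM in knockout and 5.18 ± 0.479 CPM in control (SD, n = 3 each). Its log2 fold change was 1.26 (SE 0.08). ESRP1, which sets epithelial isoforms, averaged 0.834 ± 0.259 CPM in knockout and 0.307 ± 0.0920 CPM in control, a log2 fold change of 1.43 (SE 0.29). With library totals alone 4 of these genes rose.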
